A study of Rattus norvegicus with 16 samples.

Results

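This report describes the interaction of BRCA1 genotype and olaparib in rat ovary, which is the difference that olaparib made in BRCA1+/- rats minus the difference it made in wild-type (WT) rats. It was computed for every gene from all 16 of the 16 arrays of the series, as (BRCA1+/- olaparib minus BRCA1+/- vehicle) minus (WT olaparib minus WT vehicle) on log2 values. A positive interaction means that olaparib shifted a gene upward in BRCA1+/- ovaries relative to its shift in WT ovaries, and a negative one the opposite. A given interaction can come from any of the 4 group means, so each gene is described by the group or groups that set it.

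The groups were BRCA1+/- with olaparib, BRCA1+/- with vehicle, WT with olaparib and WT with vehicle, each with n = 4 ovary samples on 1 array each. All animals were females of the Sprague-Dawley stock Jcl:SD, and BRCA1+/- means that 1 of the Brca1 copies is altered. The olaparib rats, 3 weeks old at the start, received a daily subcutaneous dose of 50 mg/kg over 14 days, and RNA was made from ovaries collected 24 h after the final injection. What was altered in Brca1, what the vehicle was and on what schedule it was given are not given in the sources used here. Neither are the age and the time of collection of the vehicle rats. The samples were labelled with Cy3 and hybridised singly to a whole-genome Agilent rat array.

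Olaparib inhibits PARP1 and PARP2, enzymes that mark DNA breaks with chains of ADP-ribose and so call in the repair of single-strand breaks, and it also holds these enzymes on the DNA. Breaks left in this way become double-strand breaks in replicating cells, and BRCA1 acts in their repair by homologous recombination. Cells with no working BRCA1 are therefore known to be sensitive to the drug, whereas cells with 1 working copy generally keep homologous recombination. In the ovary most dividing cells are granulosa cells of growing follicles, and oocytes carry their own long-lasting need for DNA repair.

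The values are log2 signals in which 0 is the brightness of the array's 75th percentile, so that a value of 1 is a doubling of brightness and levels of different probes cannot be set against each other. The 75th percentile itself ran from 202 to 566 intensity units over the arrays, and from 55.5% to 60.7% of probes were well above background. Each group was split over both slides of the study, with its replicates 1 and 2 on slide 1 and its replicates 3 and 4 on slide 2. Ovarian markers were well above background on all arrays, among them Inha, the alpha subunit of inhibin made by granulosa cells. Markers of the oviduct, the tube beside the ovary, were present too and set 6 arrays apart. A score of 35 oviduct genes was 1.26 to 3.54 on BRCA1+/- olaparib replicates 3 and 4, BRCA1+/- vehicle replicates 3 and 4, and WT olaparib replicates 1 and 3, against -2.28 to -0.75 on the other 10 arrays. The 4 WT vehicle arrays were all among those 10, so many interactions are also given without the 6 arrays. In whole-tissue samples, fewer cells of a type and less RNA per cell cannot be told apart.

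No feature passed the test of the interaction. Of 20227 features tested with limma's moderated two-sided test, 0 (0%) had a Benjamini-Hochberg adjusted p under 0.05, and the lowest adjusted p was 0.969. An unadjusted p under 0.05 was reached by 696 features (3.44%), where chance alone gives 1011. That count was 1406 with the replicate number as a block and 295 without the 6 arrays of high oviduct score. They were 411 positive features (2.03%) and 285 negative features (1.41%). The interaction had a median of 0.08 on the log2 scale over all features, and 57.8% of features were positive. The sides of the interaction had no called feature either. Olaparib against vehicle gave 0 calls by limma in BRCA1+/- (0%), where 238 features (1.18%) had an unadjusted p under 0.05, and 0 in WT (0%), where 875 (4.33%) did. BRCA1+/- against WT gave 0 calls with olaparib (0%), with 184 features (0.91%) at an unadjusted p under 0.05, and 0 with vehicle (0%), with 1113 (5.5%). Everything below is therefore a description of values, none of which passed a test across all genes, and no value below is an effect shown to exist.

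The pattern of the 4 group means was classed for each feature by 1 rule. A group was called apart when the means of the other 3 groups spanned no more than 1/3 of the interaction, a feature was called opposed when the olaparib differences of the genotypes had opposite signs and each was over 1/3 of the interaction, and the rest were called mixed. Among the 696 features with an unadjusted p under 0.05, BRCA1+/- olaparib stood apart in 1 (0.144%), BRCA1+/- vehicle in 29 (4.17%), WT olaparib in 24 (3.45%) and WT vehicle in 84 (12.1%). Another 384 (55.2%) were opposed and 174 (25%) mixed. Over all 20227 features the shares were 2.64% for BRCA1+/- olaparib, 5.9% for BRCA1+/- vehicle, 4.21% for WT olaparib, 9.9% for WT vehicle, 23.4% opposed and 54% mixed. The classes use the same means as the interaction, so these shares carry no test. An interaction seldom rested on the BRCA1+/- olaparib group alone, and over all 16 arrays WT vehicle, the group without any array of high oviduct score, was the one most often apart. That order turned with the arrays used. Over all features WT olaparib stood apart in 1056 and WT vehicle in 881 without the 6 arrays, and in 2082 and 1202 within slide 1, against 851 and 2003 over all 16 arrays.

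**Figure D1:**
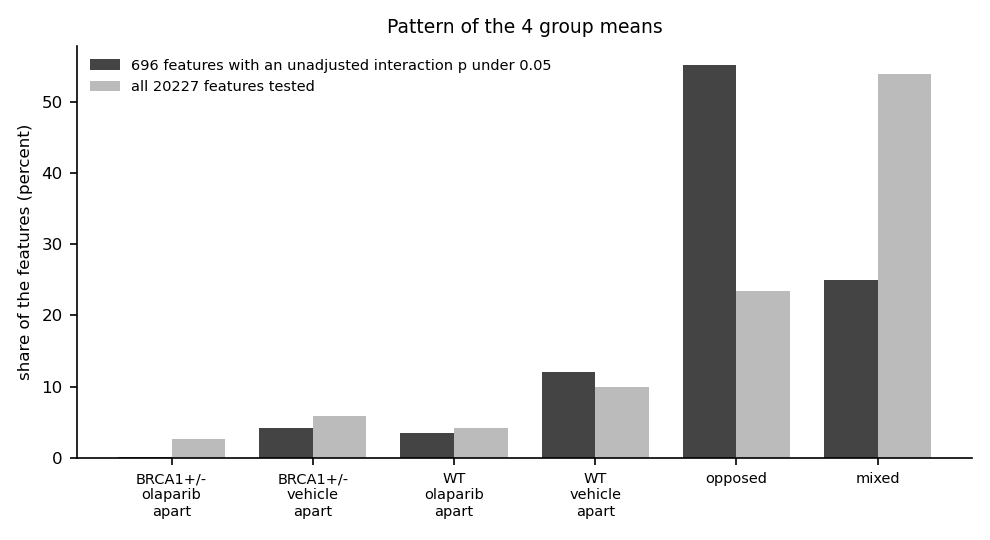
Share of features (percent) by the pattern of their 4 group means, for the 696 features with an unadjusted interaction p under 0.05 (dark bars) and for all 20227 features tested (light bars). BRCA1+/- olaparib stood apart in 0.144% of the 696 features and WT vehicle in 12.1%, while 55.2% were opposed.

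Brca1, the gene of the genotype, gave log2 signals of -0.48, -0.81, -1.17 and -0.36 in BRCA1+/- olaparib, -0.93, -0.76, -1.28 and -1.43 in BRCA1+/- vehicle, -0.76, -0.72, 0.19 and -0.89 in WT olaparib, and -0.13, -0.10, -0.68 and -0.79 in WT vehicle. The groups overlapped, and all arrays measured the gene well above background. With vehicle the BRCA1+/- mean was lower than the WT mean by a log2 difference of -0.67, and with olaparib by -0.16. The interaction was 0.52 with an SE of 0.38, a 95% interval from -0.31 to 1.34 and an adjusted p of 0.969 by limma. The probe lies at chr10:90512682-90512623 in the array files' build rn4, a descending pair that marks the minus strand. Since the altered part of the gene is not known here, this probe does not check the genotype.

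The drug's targets had interactions whose intervals include 0. Parp1, which makes most of the cell's ADP-ribose chains, averaged 4.17 ± 0.16 in BRCA1+/- olaparib, 4.06 ± 0.20 in BRCA1+/- vehicle, 4.10 ± 0.20 in WT olaparib and 4.32 ± 0.14 in WT vehicle (SD, n = 4 each). Its interaction was 0.33 with an interval from -0.15 to 0.81, and by the rule WT vehicle stood apart as the higher group. Parp2 averaged 1.01 ± 0.33 in BRCA1+/- olaparib, 0.78 ± 0.38 in BRCA1+/- vehicle, 0.77 ± 0.40 in WT olaparib and 1.11 ± 0.49 in WT vehicle, an opposed pattern with an interaction of 0.57 and an interval from -0.29 to 1.43. Parp3, a relative that acts in double-strand break joining, had the widest interaction of the 3 at 1.11, with an interval from -0.12 to 2.34. It came from slide 2, with an interaction of -0.01 within slide 1 and 2.23 within slide 2.

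The 30 named features with the smallest unadjusted p, 15 in each direction, had unadjusted p from 0.000284 to 0.00622 and an adjusted p of 0.969 each by limma. They were picked from this contrast, so their signs and patterns are a description only. In all 15 of the positive ones the mean was higher with olaparib in BRCA1+/- and lower with olaparib in WT, and in all 15 of the negative ones it was lower with olaparib in BRCA1+/- and higher in WT. The WT side was the larger one in 10 of the 15 positive and in 13 of the 15 negative features. WT vehicle had the highest of the 4 means in 12 of the positive features and the lowest in 14 of the negative ones. BRCA1+/- vehicle had the lowest mean in 9 of the positive features and the highest in 9 of the negative ones. The WT vehicle group, and next the BRCA1+/- vehicle group, thus supplied the extremes more often than the olaparib groups did. All 30 had the same sign within each slide and when any single array was left out, which their choice on these arrays favours.

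**Figure D2:**
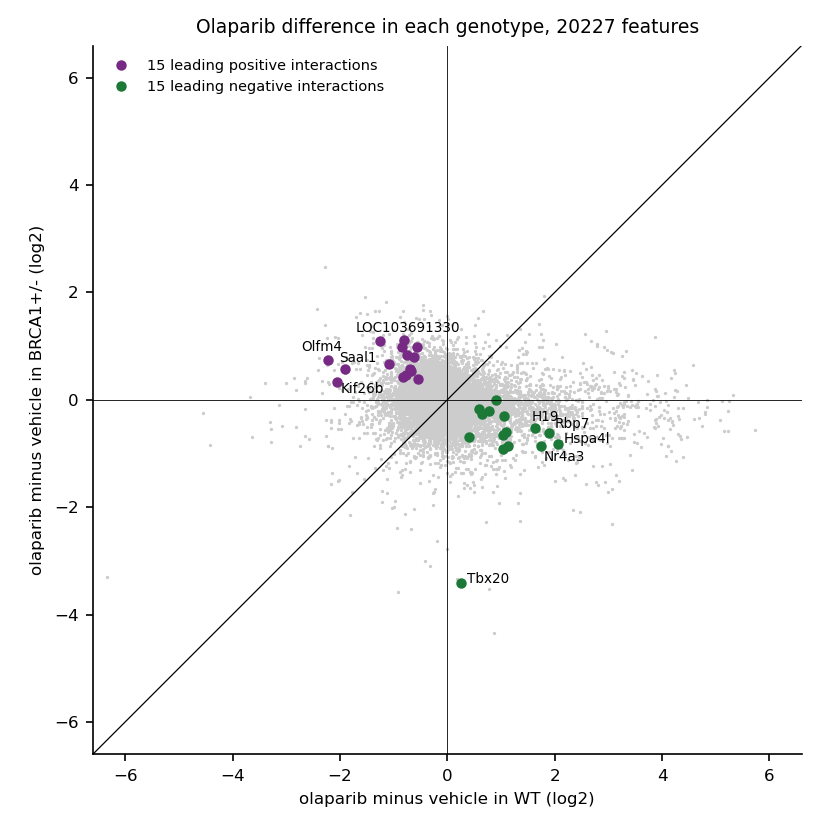
Log2 difference of olaparib minus vehicle in BRCA1+/- (vertical axis) against that in WT (horizontal axis) for all 20227 features (grey), with the 15 leading positive interactions in purple and the 15 leading negative ones in green. The black diagonal marks an interaction of 0. The purple points lie at upper left and the green points at lower right, and 10 purple and 13 green points lie farther from 0 along the WT axis. Tbx20 lies low, at -3.41 in BRCA1+/- and 0.26 in WT.

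Among the leading negative genes with WT vehicle apart, 4 had every WT vehicle array below all 12 other arrays. Such a separation of the group apart, in either direction, was seen in 15 of the 20227 features (0.0742%). Features classed as opposed or mixed were not searched for it, so this count does not cover every such separation. Hspa4l, a chaperone of the HSP110 family that is abundant in mouse testis, gave log2 signals of -1.54, -1.22, -0.65 and -0.99 in BRCA1+/- olaparib, -0.27, -1.37, 0.49 and 0.08 in BRCA1+/- vehicle, 0.88, -1.64, -0.08 and 0.13 in WT olaparib, and -1.81, -2.38, -1.94 and -2.84 in WT vehicle. The lowest of the other arrays, at -1.64, came close to the highest WT vehicle array. Its interaction was -2.90 with an SE of 0.68 and a 95% interval from -4.35 to -1.44, made of an olaparib difference of -0.83 in BRCA1+/- and of 2.06 in WT. A second probe of the gene gave -2.49. Outside WT vehicle, the highest Hspa4l array of each group was one of high oviduct score.

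H19, an imprinted non-coding RNA that lies beside the growth factor gene Igf2 and is expressed from the maternal copy, showed the widest gap of these 4 genes. It gave 1.12, 2.33, 2.38 and 1.26 in BRCA1+/- olaparib, 2.73, 1.16, 2.66 and 2.66 in BRCA1+/- vehicle, 2.73, 1.87, 1.58 and 2.50 in WT olaparib, and 0.45, 0.27, 0.78 and 0.66 in WT vehicle. The 12 arrays outside WT vehicle overlapped with each other and none was as low as a WT vehicle array. The interaction of -2.16 (SE 0.56, interval from -3.35 to -0.98) was made of -0.53 in BRCA1+/- and 1.63 in WT. It was -2.17 within slide 1, -2.16 within slide 2 and -1.87 without the arrays of high oviduct score. The gene is read by a single probe at chr1:202823046-202822987 of rn4, on the minus strand, which is shown because this separation rests on it alone.
H19 probe: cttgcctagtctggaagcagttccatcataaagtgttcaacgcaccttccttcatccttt

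Nr4a3, an orphan nuclear receptor of the immediate early class, gave -3.46, -2.80, -3.97 and -3.82 in BRCA1+/- olaparib, -1.82, -3.63, -3.56 and -1.58 in BRCA1+/- vehicle, -3.25, -2.85, -3.32 and -2.18 in WT olaparib, and -4.72, -4.03, -5.41 and -4.39 in WT vehicle. WT vehicle lay below the rest, but the gap to the nearest BRCA1+/- olaparib array was small. Its interaction was -2.60 with an SE of 0.68, and a second probe gave -2.50. The fourth gene, Slc37a1, of a family of sugar-phosphate carriers of the endoplasmic reticulum, averaged 1.13 ± 0.24 in BRCA1+/- olaparib, 1.14 ± 0.24 in BRCA1+/- vehicle, 1.42 ± 0.31 in WT olaparib and 0.52 ± 0.23 in WT vehicle (SD, n = 4 each). Its interaction of -0.91 was -0.43 without the arrays of high oviduct score, so its size moves with those arrays.

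Rbp7 and Chd7 also had WT vehicle apart on the low side with overlapping arrays. Rbp7, a cellular retinol-binding protein, averaged 0.09 ± 0.77 in BRCA1+/- olaparib, 0.71 ± 0.81 in BRCA1+/- vehicle, 0.62 ± 0.47 in WT olaparib and -1.28 ± 0.77 in WT vehicle. Its interaction was -2.52, and -1.72 without the arrays of high oviduct score. Chd7, a chromatin remodeller, averaged -2.60 ± 0.25, -2.34 ± 0.17, -2.51 ± 0.24 and -3.16 ± 0.25 in the same order of groups. Its interaction was -0.91, and -0.92 without those arrays.

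WT vehicle was apart on the high side in Saal1 and Kif26b. Saal1, named for its likeness to serum amyloid A, gave 0.61, -0.04, -0.56 and 0.89 in BRCA1+/- olaparib, 0.16, -0.68, -0.79 and -0.09 in BRCA1+/- vehicle, -0.51, -0.28, -0.69 and -0.68 in WT olaparib, and 0.45, 2.30, 1.05 and 1.67 in WT vehicle. The WT groups did not overlap, whereas WT vehicle replicate 1 lay within the range of the BRCA1+/- olaparib arrays. The interaction was 2.48 with an SE of 0.54, made of 0.58 in BRCA1+/- and -1.91 in WT, and was 2.39 without the arrays of high oviduct score. Kif26b, a protein of the kinesin family, was well above background on all 4 WT vehicle arrays, on 1 BRCA1+/- olaparib array and on none of the BRCA1+/- vehicle or WT olaparib arrays. It thus passed the filter on dim probes only through WT vehicle, the group in which it was highest. It was at least 2.20-fold lower in WT olaparib than in WT vehicle, and at least 2.17-fold lower in BRCA1+/- vehicle than in WT vehicle. Such bounds set a dim array at its own detection floor, which is the lowest signal among its detected probes where the probe itself is below that, and the fitted interaction of 2.40 rests partly on dim signals.

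Tbx20, a T-box transcription factor best known from the heart, was the leading gene with BRCA1+/- vehicle apart. It gave -7.60, -7.70, -7.66 and -8.08 in BRCA1+/- olaparib, -3.14, -5.30, -3.92 and -5.06 in BRCA1+/- vehicle, -7.79, -7.36, -7.84 and -4.17 in WT olaparib, and -7.67, -7.65, -6.33 and -6.58 in WT vehicle. All BRCA1+/- vehicle arrays were well above background, as was WT olaparib replicate 4, whereas no BRCA1+/- olaparib or WT vehicle array was. The gene was at least 3.92-fold lower in BRCA1+/- olaparib than in BRCA1+/- vehicle and at least 3.27-fold higher in BRCA1+/- vehicle than in WT vehicle. The fitted interaction was -3.67, from -4.02 to -2.80 when each array was left out in turn. These fitted values are taken against signal that was not detected, where only the bounds hold. When WT olaparib replicate 4, which is no part of that comparison, was left out, the fitted olaparib difference within BRCA1+/- of -3.41 had an adjusted p of 0.0479 by limma. With all arrays it did not pass, and the gene passed the filter on dim probes only through BRCA1+/- vehicle.

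**Figure D3:**
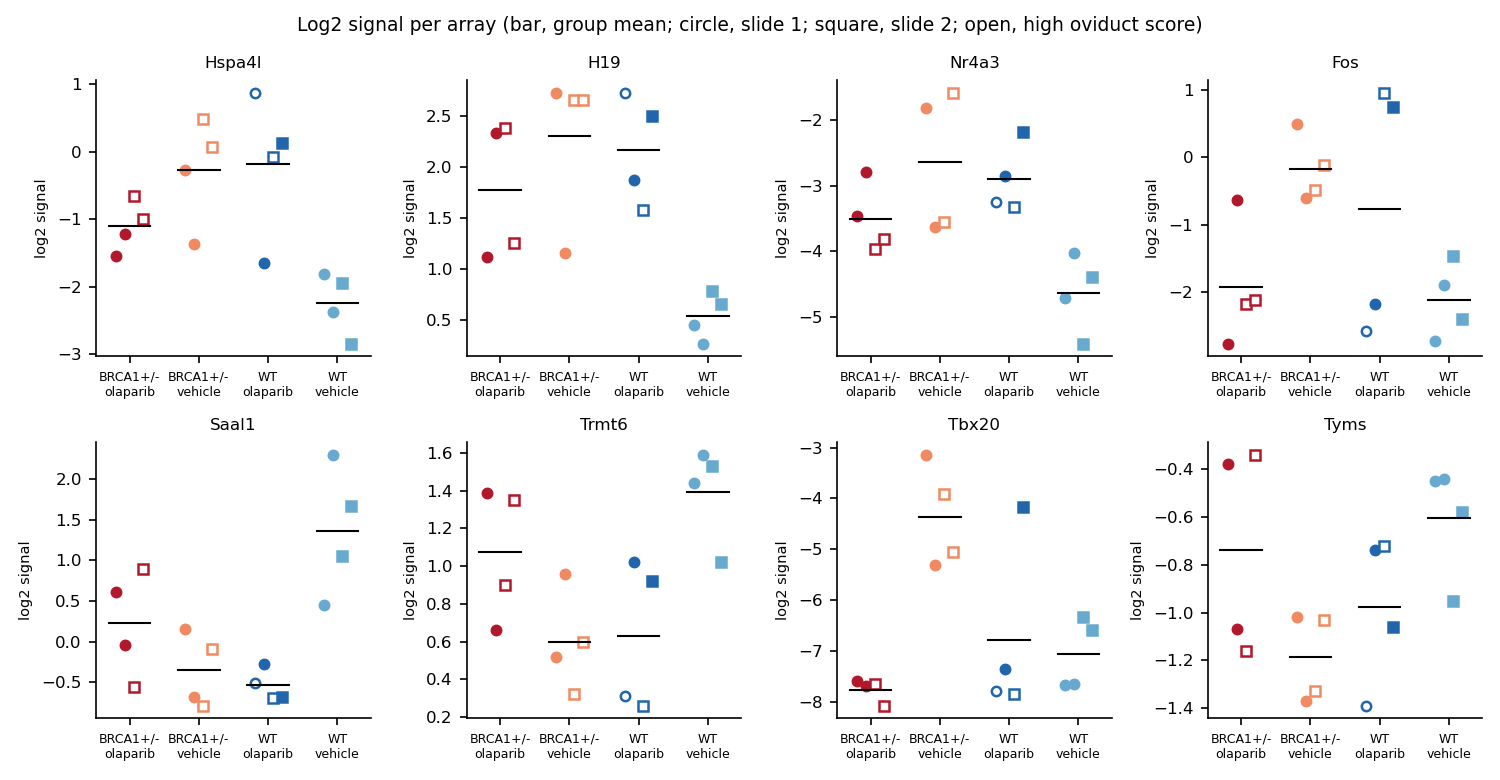
Log2 signal of 8 genes on each array, by group (horizontal axis). Bars are group means, circles are slide 1, squares slide 2, and open symbols are arrays of high oviduct score. WT vehicle lies alone at the bottom in Hspa4l, H19 and Nr4a3 and highest in Saal1, while BRCA1+/- vehicle lies highest in Tbx20.

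The opposed pattern held 12 of the 15 positive features, in which BRCA1+/- olaparib and WT vehicle were the higher pair of groups except for LOC100909782. Trmt6, a subunit of the enzyme that methylates an adenine of transfer RNA, gave 1.39, 0.66, 0.90 and 1.35 in BRCA1+/- olaparib, 0.52, 0.96, 0.32 and 0.60 in BRCA1+/- vehicle, 0.31, 1.02, 0.26 and 0.92 in WT olaparib, and 1.44, 1.59, 1.53 and 1.02 in WT vehicle. The olaparib and vehicle arrays overlapped in BRCA1+/-, and in WT the ranges met at 1.02. The interaction was 1.24 with an interval from 0.53 to 1.95, a second probe gave 1.35, and it was 0.71 without the arrays of high oviduct score. Nup107, a scaffold subunit of the nuclear pore whose mutations in humans cause failure of ovarian development, averaged -2.48 ± 0.32 in BRCA1+/- olaparib, -3.00 ± 0.26 in BRCA1+/- vehicle, -2.90 ± 0.43 in WT olaparib and -2.22 ± 0.35 in WT vehicle. Its interaction was 1.21, and 0.87 without those arrays.

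Other genes of this kind encode a thioesterase, membrane carriers and a defensin. Acot4, a thioesterase of peroxisomes, had an interaction of 1.58, with olaparib differences of 0.83 in BRCA1+/- and -0.75 in WT, and of 1.04 without the arrays of high oviduct score. Slc26a7, an anion exchanger, had 1.82, with 0.98 in BRCA1+/- and -0.84 in WT, and Slc25a43, of the mitochondrial carrier family, had 1.24, with 0.42 and -0.82. Defb20, a beta-defensin, had 0.94, and its WT olaparib arrays lay between -5.21 and -5.12 with WT vehicle between -4.89 and -4.37. For Ubap1l the chosen probe gave 1.41 and a second probe 0.32, so the probes of that gene disagree.

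The remaining positive features were Olfm4 and 5 loci known by number only. Olfm4, a secreted glycoprotein of neutrophils and epithelia, had the highest interaction of the leading positive features, 2.97, in a mixed pattern. It was well above background on all 4 WT vehicle arrays, on 2 BRCA1+/- olaparib arrays, on 1 BRCA1+/- vehicle array and on no WT olaparib array, and was at least 3.61-fold lower in WT olaparib than in WT vehicle. Olfm4 thus passed the filter on dim probes only through WT vehicle, and its fitted interaction rests partly on dim signals. The loci LOC103691330, LOC100909782, LOC102550842, LOC102551351 and LOC102550366 had interactions of 1.94, 1.55, 1.77, 2.35 and 1.29, all opposed. LOC103691330, with the smallest unadjusted p of all named features, was not well above background on any BRCA1+/- vehicle array and was at least 1.85-fold higher in BRCA1+/- olaparib.

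The other negative features were opposed in 5 cases and mixed in 3. Sema3f, a secreted guidance protein of the semaphorin family, averaged -1.11 ± 0.31 in BRCA1+/- olaparib, -0.46 ± 0.69 in BRCA1+/- vehicle, -0.43 ± 0.56 in WT olaparib and -1.46 ± 0.49 in WT vehicle, an interaction of -1.68. Fpr1, a receptor for formylated peptides on neutrophils, had -2.0, with -0.86 in BRCA1+/- and 1.14 in WT, and was well above background on only 1 WT vehicle array. Kctd11 had -1.96, Arid5a, an RNA-binding protein that stabilises inflammatory transcripts, had -1.11, and LOC100910650 had -1.69. Ust, a sulfotransferase that acts on chondroitin and dermatan chains, had -1.37 in a mixed pattern, but a second probe gave -0.23 and its value was -0.65 without the arrays of high oviduct score. Asap2, which regulates ARF GTPases, had -0.77 and Doxl1 had -0.99, both mixed. Of the 30 leading features, 7 had less than 1/1.5 of their interaction once the 6 arrays of high oviduct score were left out, namely Acot4, Trmt6, Ubap1l, LOC100910650, Slc37a1, Ust and Asap2, and none had over 1.5 times as much.

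The gene lists were described by their counts and medians beside those of all features, since the lists were drawn up with earlier results of these data known and no set test was run. Members of a list were tested only if they passed the filter on dim probes, which a gene high in a single group can also pass. Of the 32 lists, 0 had a member that passed across all genes.

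Cell cycle and replication genes had the most one-sided positive list. All 48 were on the array and tested, 45 of 48 were positive, and the median interaction was 0.66 on the log2 scale, against 57.8% positive and a median of 0.08 over all features. Pole and Tyms, 2 of the 48, had an unadjusted p under 0.05. With olaparib, 46 of 48 had a higher mean in BRCA1+/- (median difference 0.37, against 53.1% and 0.02 over all features), and 42 of 48 had a lower mean in WT (median -0.18, against 60.8% and -0.07). With vehicle, 45 of 48 had a lower mean in BRCA1+/- than in WT (median -0.52, against 57.8% and -0.06). By the pattern rule BRCA1+/- vehicle stood apart in 20 of the 48, as the lower group in 19, and another 20 were opposed. BRCA1+/- vehicle stood apart in 5.9% of all features.

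Tyms, which makes thymidylate for DNA synthesis, gave -0.38, -1.07, -1.16 and -0.34 in BRCA1+/- olaparib, -1.02, -1.37, -1.33 and -1.03 in BRCA1+/- vehicle, -1.39, -0.74, -0.72 and -1.06 in WT olaparib, and -0.45, -0.44, -0.95 and -0.58 in WT vehicle. WT vehicle lay above BRCA1+/- vehicle on every array, while the olaparib groups overlapped with both. Its interaction was 0.82 (SE 0.32), that of Pole, the leading-strand DNA polymerase, 1.18, that of Mcm3, a subunit of the replicative helicase, 0.81, and that of Gins1, of the GINS complex that joins the helicase, 0.89. Mcm3 averaged 3.11 in BRCA1+/- olaparib, 2.39 in BRCA1+/- vehicle, 2.95 in WT olaparib and 3.04 in WT vehicle, and BRCA1+/- vehicle stood apart. A second probe of Mcm3 gave 0.00, and a second probe of Pole 1.38. The 3 negative members were Ccnd1, Aurka and Aurkb.

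The score of the list, the mean of its members after each was centred over the 16 arrays, was 0.39, 0.08, -0.46 and 0.44 in BRCA1+/- olaparib, 0.20, -0.33, -0.57 and -0.47 in BRCA1+/- vehicle, -0.18, 0.09, 0.40 and -0.30 in WT olaparib, and 0.56, 0.54, -0.48 and 0.09 in WT vehicle. All groups overlapped, and single arrays of a group differed by more than the group means did. Granulosa markers had the same order of the 4 group means, but the list scores did not run together on every array. On WT olaparib replicate 3 the cell cycle score was 0.40 and the granulosa score 0.54, but on WT vehicle replicate 3 they were -0.48 and 0.42. The granulosa list had 15 of 18 tested members positive with a median of 0.31, and its score averaged 0.05 in BRCA1+/- olaparib, -0.15 in BRCA1+/- vehicle, 0.00 in WT olaparib and 0.09 in WT vehicle. The part of granulosa cell numbers in the replication genes was not tested. Without the arrays of high oviduct score the cell cycle median was 0.61, with 47 of 48 members positive.

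The 4 replication genes named above are transcribed in late G1 and S phase, and E2F factors are known regulators of this class, so their promoters were searched for E2F letters. The search used TTTCCCGC, TTTGGCGC, TTTCGCGC and TTTGCCGC on both strands from 250 bases before to 50 after the start in the RefSeq promoter table of build GRCr8. It found a match in 11 of the 37 cell cycle promoters that the table holds (29.7%), against 618 of all 27457 promoters (2.25%). Since E2F is a known regulator of this class and promoters were not split by interaction, this share does not bear on the interaction. The 4 promoters are shown from 70 bases before to 30 after the start, with the matches in capitals, on the gene's own strand. They lie at chr9:120776054-120776153 (minus) for Tyms, chr12:52053633-52053732 (minus) for Pole, chr9:30733717-30733816 (minus) for Mcm3 and chr3:160184850-160184949 (plus) for Gins1. The match in Gins1 is 2 overlapping copies on opposite strands. A match is a description of letters, not a measured binding site.
Tyms: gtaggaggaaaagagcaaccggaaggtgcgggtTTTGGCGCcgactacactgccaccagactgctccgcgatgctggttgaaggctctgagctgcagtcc
Pole: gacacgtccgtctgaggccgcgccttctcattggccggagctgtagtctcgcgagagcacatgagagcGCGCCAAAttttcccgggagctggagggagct
Mcm3: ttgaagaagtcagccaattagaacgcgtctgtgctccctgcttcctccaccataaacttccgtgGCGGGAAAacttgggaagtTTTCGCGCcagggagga
Gins1: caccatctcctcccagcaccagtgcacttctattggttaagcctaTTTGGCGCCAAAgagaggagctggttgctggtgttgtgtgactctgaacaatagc

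Homologous recombination and Fanconi genes followed the same order of groups at smaller size. Of 39 members on the array 36 were tested, 32 were positive, and the median interaction was 0.41. The medians of the sides were 0.21 for olaparib in BRCA1+/-, -0.16 for olaparib in WT, and -0.34 for BRCA1+/- against WT with vehicle. BRCA1+/- vehicle stood apart in 7, as the lower group in 6, and 15 were opposed. Rad54l, a motor protein of DNA strand exchange, averaged -0.04 in BRCA1+/- olaparib, -0.55 in BRCA1+/- vehicle, -0.21 in WT olaparib and 0.09 in WT vehicle, an interaction of 0.81. Eme1, part of a nuclease that cuts joined DNA strands, had 1.08, Rnf8, a ubiquitin ligase at breaks, 0.71, and Blm, the Bloom helicase, 0.94, though a second probe of Blm gave -0.42. Many genes of this list are themselves transcribed with the cell cycle.

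The other repair lists were nearer the background. Base excision and single-strand break repair had 15 of 21 tested members positive and a median of 0.26, with Pcna, the sliding clamp of DNA polymerases, at 0.78, Ogg1, which removes oxidised guanine, at 0.63, Lig1, the replicative ligase, at 0.52 and Nthl1 at 0.51. The PARP family and ADP-ribose turnover list had 13 of 20 positive and a median of 0.25. In it Tiparp, a mono-ADP-ribosylating member induced by the aryl hydrocarbon receptor, had -1.18 with BRCA1+/- vehicle apart as the higher group, Macrod1, which removes ADP-ribose, had -0.70, and Oard1, another ADP-ribose hydrolase, 0.60. Targets of p53, the factor that responds to DNA damage, had 10 of 25 positive and a median of -0.09. Pmaip1, which encodes NOXA, had -1.34, Plk2 -1.76, Btg2 -1.03 and Perp, also an epithelial junction gene, -2.77. Perp followed the oviduct score, with 2.35 and 1.13 on the high arrays of BRCA1+/- olaparib, 2.92 and 0.92 on those of BRCA1+/- vehicle, 3.24 and 2.64 on those of WT olaparib, and between -2.08 and -0.46 on the other 10.

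**Figure D4:**
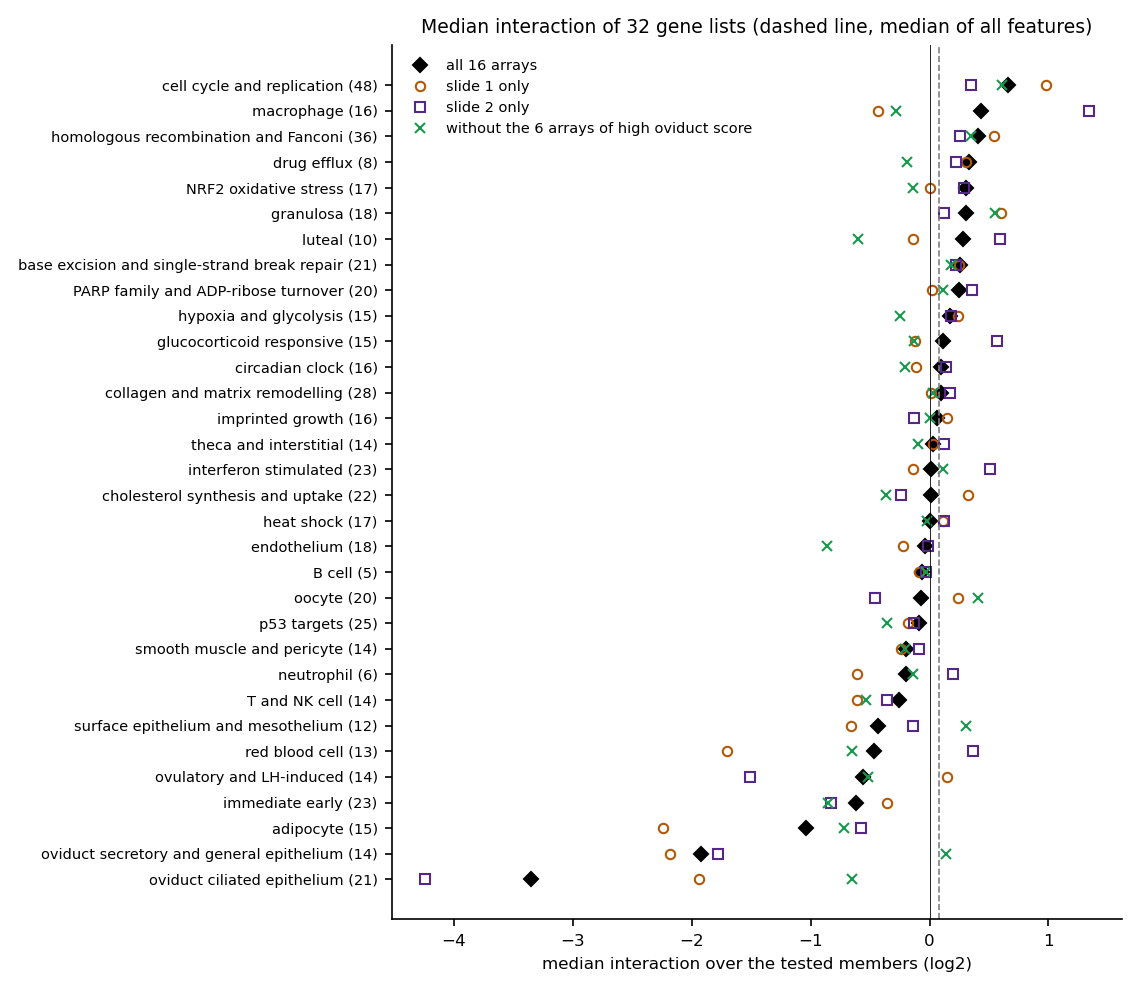
Median interaction (log2, horizontal axis) of the tested members of 32 gene lists, with the number tested in brackets. Diamonds use all 16 arrays, circles slide 1, squares slide 2, and crosses leave out the 6 arrays of high oviduct score, and the dashed line is the median of all features, 0.08. Cell cycle and replication lies highest at 0.66, and the oviduct ciliated list moves to -0.65 from -3.35 without the 6 arrays.

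Immediate early genes, which cells switch on within minutes of a signal or of handling, were the negative counterpart. Of 25 on the array 23 were tested and 18 were negative, with a median of -0.62, and 5 had an unadjusted p under 0.05 in the negative direction, which 1.41% of all features had. With olaparib, 23 of 23 had a lower mean in BRCA1+/- (median -0.47), against 46.9% of all features, and 15 of 23 a higher mean in WT (median 0.17). With vehicle, 20 of 23 had a higher mean in BRCA1+/- than in WT (median 0.38). Fos, a subunit of the AP-1 factor, gave -2.76, -0.64, -2.18 and -2.11 in BRCA1+/- olaparib, 0.49, -0.61, -0.49 and -0.11 in BRCA1+/- vehicle, -2.57, -2.17, 0.96 and 0.74 in WT olaparib, and -2.73, -1.89, -1.47 and -2.39 in WT vehicle. In BRCA1+/- every vehicle array lay above every olaparib array, but only just, the nearest being -0.61 with vehicle and -0.64 with olaparib. The WT olaparib arrays split, with slide 2 high and slide 1 low.

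The interaction of Fos was -3.10 with an SE of 1.02, and it was -1.57 within slide 1 and -4.63 within slide 2. Fosb, its close relative, had -3.61, with -1.30 within slide 1 and -5.91 within slide 2, and Nr4a1, a receptor related to Nr4a3, had -1.49. WT olaparib replicate 4 had the highest score of its group for this list at 0.84, against -0.68, -0.24 and 0.08 on the other WT olaparib arrays. The scores were -0.61, 0.43, -0.24 and -0.40 in BRCA1+/- olaparib, 0.86, 0.12, 0.28 and 0.69 in BRCA1+/- vehicle, and -0.67, -0.22, -0.05 and -0.18 in WT vehicle. Every BRCA1+/- vehicle array lay above every WT vehicle array, while the olaparib groups overlapped with both. Of the 32 lists, the p53 target and glucocorticoid scores also had every BRCA1+/- vehicle array above every WT vehicle array. The cAMP response element, TGACGTCA, was found in 4 of the 15 immediate early promoters that the table holds (26.7%), against 1.91% of all promoters. The CArG box, a run of A and T letters between CC and GG, was found in 3 of the 15 (20%), against 1.64%. Both are matches of letters, not measured binding sites.

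**Figure D5:**
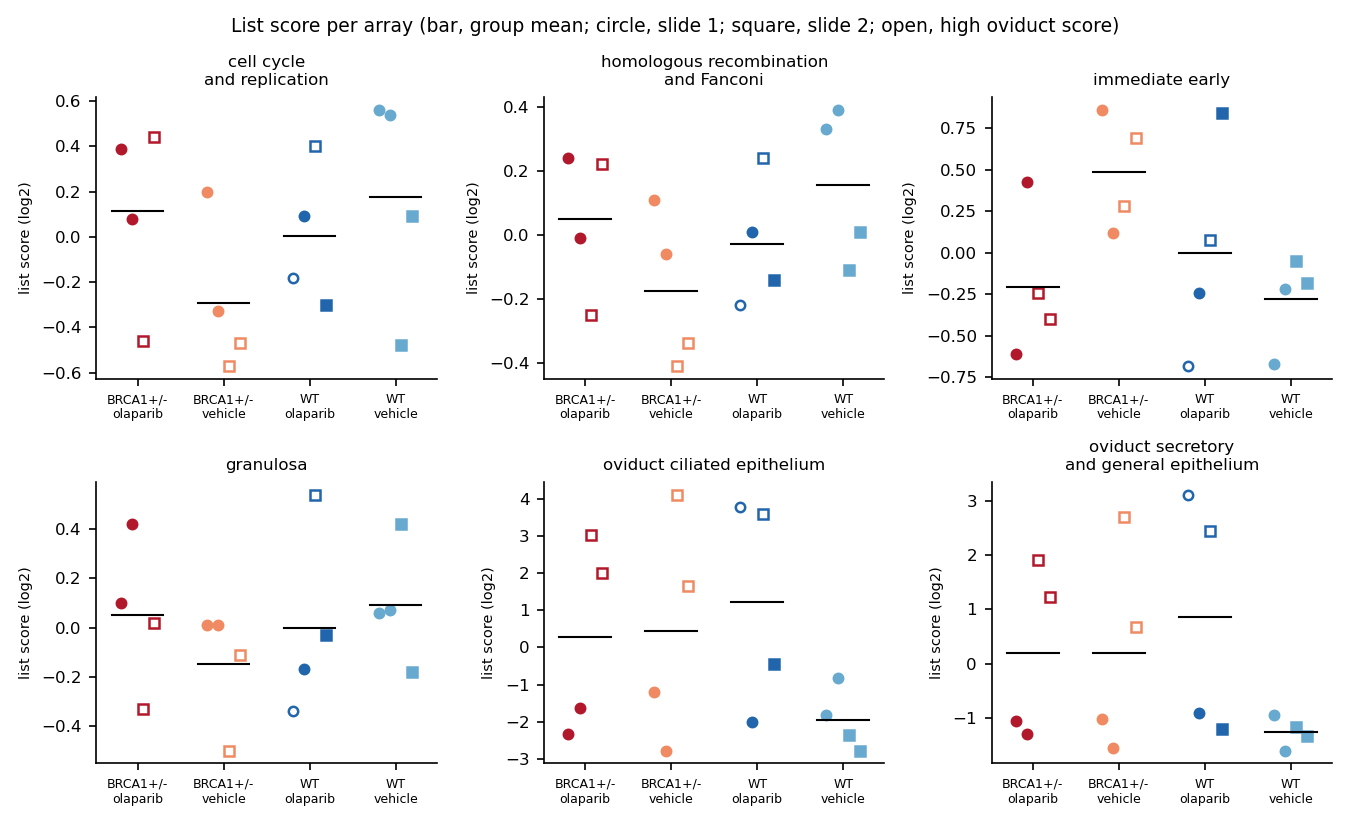
Score (log2, mean of centred members) of 6 gene lists on each array, by group, with symbols as in the plot of single genes. Groups overlap in every list shown, except that BRCA1+/- vehicle lies above all of WT vehicle in immediate early genes. BRCA1+/- vehicle has the lowest mean in cell cycle and homologous recombination and the highest in immediate early genes, and the open symbols mark the 6 arrays high in both oviduct lists.

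Genes induced by the ovulatory surge of luteinising hormone had 5 of 14 tested members positive and a median of -0.56. Rgs2, which limits G-protein signalling, had -1.40 with BRCA1+/- vehicle apart as the higher group, and Egr1, also an immediate early gene, had -1.41. Ptgs2, which makes prostaglandins for ovulation, had -3.15, and -0.84 without the arrays of high oviduct score, its highest signal being -0.60 on WT olaparib replicate 3. Ereg, an EGF-like factor of the same cascade, went the other way with 3.26 in an opposed pattern. The median of the list was 0.15 within slide 1 and -1.51 within slide 2.

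The 2 oviduct lists had medians farther from 0 than the other lists, and the score that set the 6 arrays apart was built from their 35 tested genes. Of the ciliated list 21 of 23 genes on the array were tested, all 21 were negative and the median was -3.35. Of the secretory and general epithelial list 14 of 17 were tested, all 14 were negative and the median was -1.92. WT vehicle stood apart as the lower group in 15 and in 8 of them. Rsph1, a protein of the ciliary radial spoke, gave -1.08, -1.23, 3.33 and 2.02 in BRCA1+/- olaparib, -0.79, -1.97, 4.51 and 1.65 in BRCA1+/- vehicle, 3.82, -1.0, 3.88 and 0.44 in WT olaparib, and -1.91, -0.30, -1.77 and -1.92 in WT vehicle. The ciliated score ran from -2.33 to 3.02 in BRCA1+/- olaparib, -2.77 to 4.10 in BRCA1+/- vehicle, -2.0 to 3.77 in WT olaparib and -2.77 to -0.83 in WT vehicle. Within each of the first 3 groups the arrays differed by more than any group means did. Without the 6 arrays the medians were -0.65 for the ciliated and 0.14 for the secretory list, with 3 of 21 and 8 of 14 members above 0, a shift that the choice of those arrays by these genes favours. Dnai1, an outer dynein arm chain, had -3.61, Dnah5 -2.32, Cfap43 -5.40, and the epithelial genes Cdh1, Wfdc2 and Spint1 had -2.49, -1.33 (0.05 without the 6 arrays) and -2.64.

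Other epithelial and fat markers showed part of the same pattern. Surface epithelium and mesothelium had 3 of 12 tested members positive and a median of -0.43, which was 0.31 without the 6 arrays. Krt18 had -2.77, Wt1 -0.79 (0.04 without the 6 arrays), Lrrn4 0.82 and Calb2, which encodes calretinin, 3.00. Adipocyte genes had 3 of 15 positive and a median of -1.04, with Lep, the leptin gene, at -3.89, Acvr1c at -2.86, Cidea at -1.17 and Lipe, hormone-sensitive lipase, at 1.96. Lep was well above background on 3 WT olaparib arrays, with -0.47 and -1.92 on slide 1, and was at least 5.33-fold higher in WT olaparib than in WT vehicle. The score of the adipocyte list averaged 0.01 in BRCA1+/- olaparib, 0.09 in BRCA1+/- vehicle, 0.69 in WT olaparib and -0.79 in WT vehicle, and its part in other genes was not tested.

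Of the lists for steroid-making and germ cells, the granulosa list was the one-sided one. In the granulosa list Fst, the activin antagonist follistatin, had 1.18, with 5.58, 5.47, 4.88 and 5.63 in BRCA1+/- olaparib, 4.65, 5.10, 4.36 and 4.61 in BRCA1+/- vehicle, 5.25, 5.78, 5.25 and 5.01 in WT olaparib, and 5.53, 5.93, 5.33 and 6.38 in WT vehicle. WT vehicle lay above BRCA1+/- vehicle on every array. Nr0b1 had 1.1, Inha 0.58 and Hsd17b1, which activates oestrogen, 0.57. Theca and interstitial genes had 7 of 14 positive and a median of 0.03, which was -0.10 without the 6 arrays, with Cyp17a1, needed for androgen synthesis, at -4.74, Srd5a1 at 1.5, Insl3 at -0.95 (0.10 within slide 2) and Ptch1 at -0.77. No tested member of this list, Cyp17a1 included, had an unadjusted p under 0.05 by limma, despite the size of its value. Luteal genes had 7 of 10 positive and a median of 0.28, which was -0.60 without the 6 arrays and -0.14 within slide 1, with Akr1c3 (listed under its older symbol Akr1c18), the enzyme that inactivates progesterone, at 3.56, Runx1 at 0.77 and Parm1 at 0.46 (-0.13 within slide 1). Akr1c3 gave 0.87, 6.27, -4.68 and 8.55 in WT olaparib and from 4.99 to 8.65 elsewhere, so 2 arrays set its value, both of high oviduct score, and it was -2.0 without the 6 arrays. Oocyte genes had 8 of 20 positive and a median of -0.07, which was 0.41 without the 6 arrays, with Kit, the stem cell factor receptor, at -1.43, Nobox at 0.48, Padi6 at -0.34 (0.33 without the 6 arrays) and Ooep at 0.30 (-0.23 within slide 2).

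Medians of the blood and vessel lists were near 0 or split between slides, except that T and NK cell genes were mostly negative. Macrophage genes had 11 of 16 positive and a median of 0.43, but -0.43 within slide 1, 1.34 within slide 2 and -0.28 without the 6 arrays. Msr1, a scavenger receptor, was at 1.19, Cd163 at 1.01 (-0.05 within slide 1), Siglec1 at 0.90 and Fcgr3a at -1.07 (0.52 within slide 2). Neutrophil genes had 3 of 6 positive and a median of -0.20, which was 0.20 within slide 2, with the calprotectin genes S100a8 and S100a9 at 2.80 and 1.62 and Lcn2 at -2.14. T and NK cell genes had 2 of 14 positive and a median of -0.26, with Cd8a at -0.69 (0.60 without the 6 arrays), Cd28 at -0.62 and Il2rb at -0.61. B cell genes had 2 of 5 positive and a median of -0.06, with Cd22 at 0.50, Cd79a at 0.44 (-0.06 without the 6 arrays) and Jchain at -0.56. Red blood cell genes had 2 of 13 positive and a median of -0.47, which was -1.70 within slide 1 and 0.37 within slide 2, with Hbb-bs, a beta globin, at -1.21, Slc4a1 at -1.11 and Hemgn at -0.47. Endothelial genes had 8 of 18 positive and a median of -0.04, which was -0.86 without the 6 arrays, with Sox7 at -2.22, Plvap at -0.76, Vwf at 0.51 and Cldn5 at -0.48. Smooth muscle and pericyte genes had 5 of 14 positive and a median of -0.20, with Synpo2 at -1.12, Myh11 at -0.68, Cspg4 at -0.51 and Pdgfrb at 0.45 (-0.34 without the 6 arrays).

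Several medians of the stress and signalling lists turned sign without the 6 arrays. Heat shock genes had 8 of 17 positive and a median of 0.00, so that the interaction of Hspa4l was not shared by that list. Hspe1 and Hspd1, the mitochondrial chaperonin pair, had 1.00 and 0.99, and Dnajb1 had 0.44. NRF2 targets had 13 of 17 positive and a median of 0.31, which was -0.14 without the 6 arrays and 0.00 within slide 1, with Hmox1 at 1.24 (0.05 without the 6 arrays), Gclc at 0.48, Gstm1 at -0.72 and Gpx2, also an epithelial gene, at -3.01. Interferon stimulated genes had 12 of 23 positive and a median of 0.01, which was -0.14 within slide 1 and 0.51 within slide 2, with Batf2 at 1.27, Bst2 at 0.68 and Rsad2 at -1.09 (0.36 within slide 2). Hypoxia and glycolysis genes had 10 of 15 positive and a median of 0.17, which was -0.25 without the 6 arrays, with Egln3, an oxygen sensor, at -2.38, Ankrd37 at -1.03, Pgk1 at 0.72 and Eno1 at 0.64. Glucocorticoid responsive genes had 10 of 15 positive and a median of 0.11, which was -0.13 without the 6 arrays, with Angptl4 at 0.85, Sgk1 at 0.84, Fkbp5 at 0.80 and Cdkn1c at -0.78. Circadian clock genes had 8 of 16 positive and a median of 0.10, which was -0.21 without the 6 arrays, with Hlf at -0.69, Bmal1 at 0.58 (-0.19 without them), Cry1 at -0.52 (0.02 within slide 1) and Cry2 at -0.40.

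Of the last 4 lists, drug efflux genes bear most on olaparib, which is carried out of cells by the pump P-glycoprotein. They had 5 of 8 positive and a median of 0.33, which was -0.19 without the 6 arrays. Abcb1b, a rat gene of that pump, had -0.95, with 5.59 in BRCA1+/- olaparib, 6.42 in BRCA1+/- vehicle, 5.40 in WT olaparib and 5.29 in WT vehicle, so that BRCA1+/- vehicle stood apart. Abcc2 had 0.88, Abcb4 0.85 and Abcc1 -0.27. Cholesterol synthesis and uptake had 11 of 22 positive and a median of 0.01, which was -0.37 without the 6 arrays, with Dhcr7 at 0.91 (-0.10 without them), Sqle at -0.69 and Scarb1, which takes up lipoprotein cholesterol, at 0.55. Collagen and matrix remodelling had 16 of 28 positive and a median of 0.10, with Adamts3 at 1.5 (-0.17 without the 6 arrays), Timp1 at 1.05, Fn1 at -0.78 and Mmp14 at -0.59. Imprinted growth genes had 10 of 16 positive and a median of 0.06, with Dlk1 at 2.06, Nnat at -1.72 and Peg10 at -1.18 (0.25 within slide 1), so the order of groups seen in H19 was not shared by the list as a whole.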

How the data were processed

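Ovary RNA of 16 rats was measured on single-colour arrays. The spot intensities were made by the authors in Agilent Feature Extraction 10.7 per the submitters' processing notes and 10.7.1.1 per the file headers. The main unit is the log2 value of the deposited matrix. On each array it differed from the log2 of the scanner's processed intensity by 1 constant, the 75th percentile shift. Spots of 1 probe were averaged. Of 45598 non-control probes 12 were left out for flagged spots, and 26820 were kept as well above background in at least 3 of 4 arrays of at least 1 group. Names came from RefSeq through accessions (21226 probes), current symbols (9326) or older symbols (321), 5269 kept the file's name and 9444 had none. The brightest probe stood for a gene, which gave 20227 features. Limma 3.58.1 in R 4.3.3 fitted 4 group means over 16 arrays (12 residual degrees of freedom) with Benjamini-Hochberg adjustment over all features, called at 0.05. The script was tested on simulated data.

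The text names Brca1, Parp1, Parp2 and Parp3, the 15 named features of smallest unadjusted p in each direction, and from each of 32 lists up to 4 members of smallest p, of which a few are not reported here. The members and lists were chosen with earlier results of these data known. Samples are numbered replicates of separate animals by the design text, and their number limits the precision. Probe positions are those of the files, build rn4. Alternatives were scaling, background correction, dim-probe filter, probes per gene, slide, replicate block, array weights, leaving out arrays of high oviduct score and leaving out each array.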

Additional observations from a re-analysis of the deposited data

Results flagged for a closer look

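Within each group of 4 arrays, a single array was marked when its gap to the nearest of the others, over the whole range of the group, exceeded Dixon's 95% critical value. This was done for the genes of the naming rule outside the lists and for 32 list scores, 264 groups of 4 values in all. Of these, 15 were marked, where chance flags about 1 in 20 groups. No cause was tested for any of them.

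Among the genes, Brca1 was 0.19 on WT olaparib replicate 3, against -0.89 to -0.72 on the other arrays of its group. Parp2 was 0.21 on BRCA1+/- vehicle replicate 3, against 0.96 to 0.99. Of the leading features, H19 was 1.16 on BRCA1+/- vehicle replicate 2, against 2.66 to 2.73, and Tbx20 was -4.17 on WT olaparib replicate 4, against -7.84 to -7.36. LOC102550842 was -3.62 and Doxl1 -4.90 on WT olaparib replicate 3, against -2.82 to -2.66 and -4.39 to -4.31. Slc25a43 was -2.45 on WT olaparib replicate 2, against -3.39 to -3.24. Defb20 was -4.14 on BRCA1+/- olaparib replicate 1, against -4.64 to -4.60, and LOC102550366 was 0.79 on BRCA1+/- olaparib replicate 3, against 1.14 to 1.18. LOC100910650 was -2.26 on BRCA1+/- vehicle replicate 3, against -3.22 to -3.15.

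Among the list scores, theca and interstitial genes were at -0.60 on BRCA1+/- olaparib replicate 4, against 0.12 to 0.23. On BRCA1+/- olaparib replicate 2, oocyte genes were at 0.36, against -0.09 to -0.02, and ovulatory genes at 0.42, against -0.19 to -0.12. In WT olaparib, PARP family genes were at 0.09 on replicate 2, against -0.10 to -0.08, and interferon stimulated genes at 0.37 on replicate 1, against -0.24 to -0.16.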

How the results depend on the processing

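The interaction had 0 calls under each of the 28 other settings, and its count at an unadjusted p under 0.05 ran from 295 without the arrays of high oviduct score to 1406 with the replicate block, whose lowest adjusted p by limma was 0.473. Same-numbered arrays of different groups had correlated deviations from r of -0.44 to 0.71, with 13 of 24 pairs over 0.1, and the numbers were not taken as pairs because not every pair was over 0.1. The median r was 0.21, against -0.05 for other pairs, and 12 of 16 arrays correlated best with an array of their own number, a hint of shared structure. Same-numbered arrays also share a slide by the layout, whereas most other pairs do not, so these medians do not tell number and slide apart. Pairs that share a slide but not a number were counted with the other pairs and not summarised separately. Olaparib in BRCA1+/- had 0 to 1 calls when single arrays were left out, the 1 being Tbx20 without WT olaparib replicate 4, set against signal not well above background. Of 156 named genes, 21 turned sign under at least 1 setting. Groups of 4 arrays limit all of this, and the cause of each shift below was not tested. Without the arrays of high oviduct score the BRCA1+/- groups lie on slide 1 only.

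Without the arrays of high oviduct score the list medians moved to -0.65 (ciliated), 0.14 (secretory), 0.31 (surface epithelium), -0.60 (luteal), 0.41 (oocyte), -0.28 (macrophage), -0.86 (endothelium), 0.11 (PARP family), -0.36 (p53 targets), -0.21 (circadian clock), -0.13 (glucocorticoid), -0.14 (NRF2), -0.19 (drug efflux) and -0.25 (hypoxia). Genes that turned included Wfdc2 at 0.05, Wt1 0.04, Akr1c3 -2.0, Padi6 0.33, Cd8a 0.60, Cd79a -0.06, Pdgfrb -0.34, Dhcr7 -0.10, Bmal1 -0.19 and Adamts3 -0.17. Within slide 1 the medians were -2.24 (adipocyte), -0.43 (macrophage), -1.70 (red blood cell), 0.02 (PARP family), 0.15 (ovulatory), -0.11 (circadian clock), -0.12 (glucocorticoid) and 0.00 (NRF2), and Parp3 turned to -0.01, Parm1 to -0.13, Cd163 to -0.05, Cry1 to 0.02 and Peg10 to 0.25. Within slide 2 they were 1.34 (macrophage), 0.37 (red blood cell), -1.51 (ovulatory), 0.57 (glucocorticoid), 0.51 (interferon) and -0.13 (imprinted), and Insl3 turned to 0.10, Ooep to -0.23, Fcgr3a to 0.52 and Rsad2 to 0.36. With array weights the B cell median was 0.22.

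Leaving out single arrays gave medians from -0.35 to 0.21 (B cell), -0.53 to 0.00 (smooth muscle), -0.02 to 0.20 (heat shock), -0.11 to 0.33 (glucocorticoid) and 0.14 to 0.57 (NRF2), and Padi6 ran from -0.70 to 0.08, turning without WT olaparib replicate 3. Over the same settings BRCA1+/- olaparib stood apart in 337 to 895 features, BRCA1+/- vehicle in 832 to 1876, WT olaparib in 653 to 1545 and WT vehicle in 1216 to 2618. Under other settings BRCA1+/- olaparib stood apart in 1088 features with no filter on dim probes, 1110 within slide 2 and 262 with array weights, WT olaparib in 2082 within slide 1 and 1333 with array weights, and WT vehicle in 3054 with no filter, 1202 within slide 1 and 881 without the arrays of high oviduct score, so that WT olaparib came before WT vehicle in the last 2 settings.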

Other observations

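Outside the named genes, 11 of 15 features were not described above that had a group apart by the rule, with all its arrays outside the range of the other 12. They were singled out after their values were seen, none passed limma's test (adjusted p of 0.969 each), and no explanation was tested. BRCA1+/- vehicle was the lower group in Homer3, a scaffold protein of the Homer family, at 0.19 to 0.83 against 0.94 to 3.13 on the other arrays, with an interaction of 1.90, and in Adissp, at 0.97 to 1.18 against 1.21 to 1.97. WT olaparib was the higher group in Akr1d1, the steroid 5-beta-reductase, at -5.28 to -4.88 against -7.33 to -5.62, with an interaction of -1.65. It was also higher in Mapt, which encodes the microtubule protein tau (interaction -0.84), and in Zfp217 (-0.25), by a narrow gap. Over the arrays the lowest signal well above background was -6.86 to -5.01. The Akr1d1 signals lie near this detection floor, so its interaction rests partly on dim signals.

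The other 12 arrays lay above WT vehicle in Ovol2, an epithelial transcription factor, at -5.31 to -1.66 against -7.75 to -5.73 in WT vehicle. They also did in Kif9, a kinesin of motile cilia, at -5.22 to 0.00 against -7.19 to -5.32 in WT vehicle, and in Dync2i1, a subunit of the dynein of transport within cilia, at 0.37 to 1.60 against -0.20 to 0.28. WT vehicle is also the group with no array of high oviduct score, and the part of that score in these genes was not tested. On the WT vehicle arrays the lowest signal well above background was -6.43 to -5.80. The Ovol2 and Kif9 signals of WT vehicle lie near or below this floor, so the size of their gaps is uncertain. LOC108353207 was lower on the other 12 arrays, at -5.89 to -3.37, than in WT vehicle, at -3.36 to -1.62. The last 2 features, lower in WT olaparib, are probes with no gene name here.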
